A study of Mus musculus with 6 samples.

Results

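Irs1, the first insulin receptor substrate, and 8 other genes of insulin and insulin-like growth factor (IGF) signalling were read out in the neocortex of mouse embryos: Irs2, Irs4, Insr, Igf1r, Igf1, Pik3r1, Pik3ca and Akt1. The 9 genes are members of a named pathway list out of 48709 genes counted, and 8 of the 9 passed the filter on low counts, as did 15385 genes in all. Irs1 headed the list because an earlier analysis of the same counts had called it lower in the mutants, so its difference between the groups is given here as a description. The other 8 stand in the list for their place in the pathway.

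Tissue came from 3 wild-type embryos (WT) and 3 embryos heterozygous for an allele of Rest without exon 4 (Rest_het, labelled Rest(+/deltaExon4)). The protein REST silences neuronal genes outside neurons and in progenitors. All 6 were C57BL/6 embryos at stage E15.5, and the labels name separate mice without saying whether they were littermates, and give no sex. Reads of a LacZ transgene occurred in each WT library and in no Rest_het library, and reads of Cre-ERT2 in each Rest_het library and in no WT library, so other alleles split with genotype, and their effects and that of Rest cannot be told apart.

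Insulin and the IGFs bind the receptor tyrosine kinases encoded by Insr and Igf1r. The activated receptors phosphorylate the IRS adaptor proteins, which recruit the PI3-kinase made of a catalytic subunit (Pik3ca) and a regulatory subunit (Pik3r1), and its lipid product activates the kinase AKT (Akt1). In the developing cortex this pathway is known for supporting the growth, division and survival of progenitors and neurons.

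Gene reads per library ranged from 17835117 to 20753653. Values are CPM, the reads of a gene scaled to the TMM-adjusted size of its library. The edgeR p-values set the difference between the groups against the spread between these embryos. Markers of the dorsal cortex were present throughout, with all 5 excitatory neuron markers and all 5 progenitor markers detected in every library. The summed excitatory neuron markers measured 1727 to 1994 CPM in WT and 1574 to 1724 CPM in the mutants. These sums did not overlap, by a narrow gap, although each of the 5 markers overlapped. The progenitor marker Eomes and the microglial marker P2ry12 were lower in every mutant (edgeR adjusted p = 0.40 and 0.33). Emx1, a marker of the telencephalon, was higher in every mutant (edgeR adjusted p = 0.395). Groups without overlap, in either direction, made up 19.3% of all tested genes. Markers of other cell types varied between libraries. The 5 choroid plexus markers summed to 2.85 to 57.8 CPM in WT and 7.37 to 375 CPM in Rest_het libraries. Of these markers 3 had reads in all 6 libraries. The groups overlapped in the sums and in every marker but Otx2. Otx2 was higher in every mutant, at 1.27 to 2.38 CPM against 0.257 to 0.860 CPM (edgeR adjusted p = 0.32). That split held for 10.4% of all tested genes. The 3 mural cell markers summed to 162 to 235 CPM in WT and 217 to 1451 CPM in Rest_het libraries, which came from Rgs5. Rgs5 measured 216, 152 and 181 CPM in WT and 1432, 1161 and 196 CPM in the mutants (edgeR adjusted p = 0.32). Rest_het replicate 3 thus lay within the WT range, and Rgs5, Pdgfrb and Kcnj8 all overlapped between the groups. The part of such cells in the results was not tested. Rest itself, whose gene total does not test the loss of exon 4, measured 20.6 ± 0.778 CPM in WT and 18.1 ± 1.23 CPM in the mutants (SD, n = 3; edgeR adjusted p = 0.49).

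The 3 IRS genes of the list share a short sequence before their start sites, shown here because it sets the family side by side. Each stretch is 80 bases of GRCm38.p6 from the RefSeq promoter table, which held an entry for 8 of the 9 genes (all but Insr), read 5′ to 3′ on the gene's own strand, the minus strand in each case. Capitals mark CACGTG, the E-box bound by basic helix-loop-helix factors, and TGTTTTG, a form of the insulin response element bound by FOXO factors. Both motifs were picked after the 3 sequences had been seen.
Irs1: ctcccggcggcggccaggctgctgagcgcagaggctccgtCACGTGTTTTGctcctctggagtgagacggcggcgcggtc
Irs2: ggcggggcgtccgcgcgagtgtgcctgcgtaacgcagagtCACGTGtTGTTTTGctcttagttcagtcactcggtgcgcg
Irs4: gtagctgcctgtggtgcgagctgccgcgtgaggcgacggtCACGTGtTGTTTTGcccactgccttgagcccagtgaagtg
The stretch of Irs1 is chr1:82291515-82291594, that of Irs2 chr8:11008934-11009013 and that of Irs4 chrX:141725332-141725411. The E-box begins 115 bases before the start site of Irs1, 44 bases before that of Irs2 and 154 bases before that of Irs4. In Irs1 the motifs overlap, the second beginning 4 bases after the first base of the E-box, while in Irs2 and Irs4 it begins 7 bases after. Over all 32851 promoter entries of 300 bases, with both strands searched, 7.15% held CACGTG and 6.28% held TGTTTTG. The pair at a spacing of 4 to 8 bases occurred in 9 entries of 8 genes, or 0.0274%, and 3 of these genes were Irs1, Irs2 and Irs4. The motifs came from these 3 sequences, and the window takes in their spacings of 4 and 7 bases. Their place among the 9 entries was thus fixed in advance and is no test. REST binds a longer element whose left part holds CAGCACC and whose right part holds GGACAGC. These letters occurred in 7.14% and 6.56% of entries, the left part in a promoter of Akt1 and the right part in that of Irs2, and neither in that of Irs1. A match here is a description of letters, not a binding site.

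Irs1 was lower in every Rest_het library than in every WT library. It lies on chromosome 1 from 82233101 to 82291416 on the minus strand of GRCm38 (ENSMUSG00000055980), with a first exon that holds the whole coding sequence and a second that is 3′ untranslated. The WT libraries measured 111, 131 and 121 CPM and the Rest_het libraries 68.4, 68.7 and 70.7 CPM. The mutants thus lay close together, below a wider spread of WT values. The means were 121 ± 9.65 CPM in WT and 69.3 ± 1.25 CPM in Rest_het (SD, n = 3). WT levels were 1.75-fold those of Rest_het, with an approximate interval from 1.56 to 1.96. In bulk tissue, fewer cells that express a gene and less RNA per cell cannot be told apart. The edgeR adjusted p of 0.014 is the call that chose the gene, where 0.123% of the 15385 tested genes were called, 0.0585% as lower and 0.065% as higher. It rose above 0.05 without WT replicate 3 (edgeR adjusted p 0.071), Rest_het replicate 1 (0.079) or Rest_het replicate 2 (0.058), while the log2 fold change stayed between -0.86 and -0.75 over the 6 omissions.

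**Figure D1:**
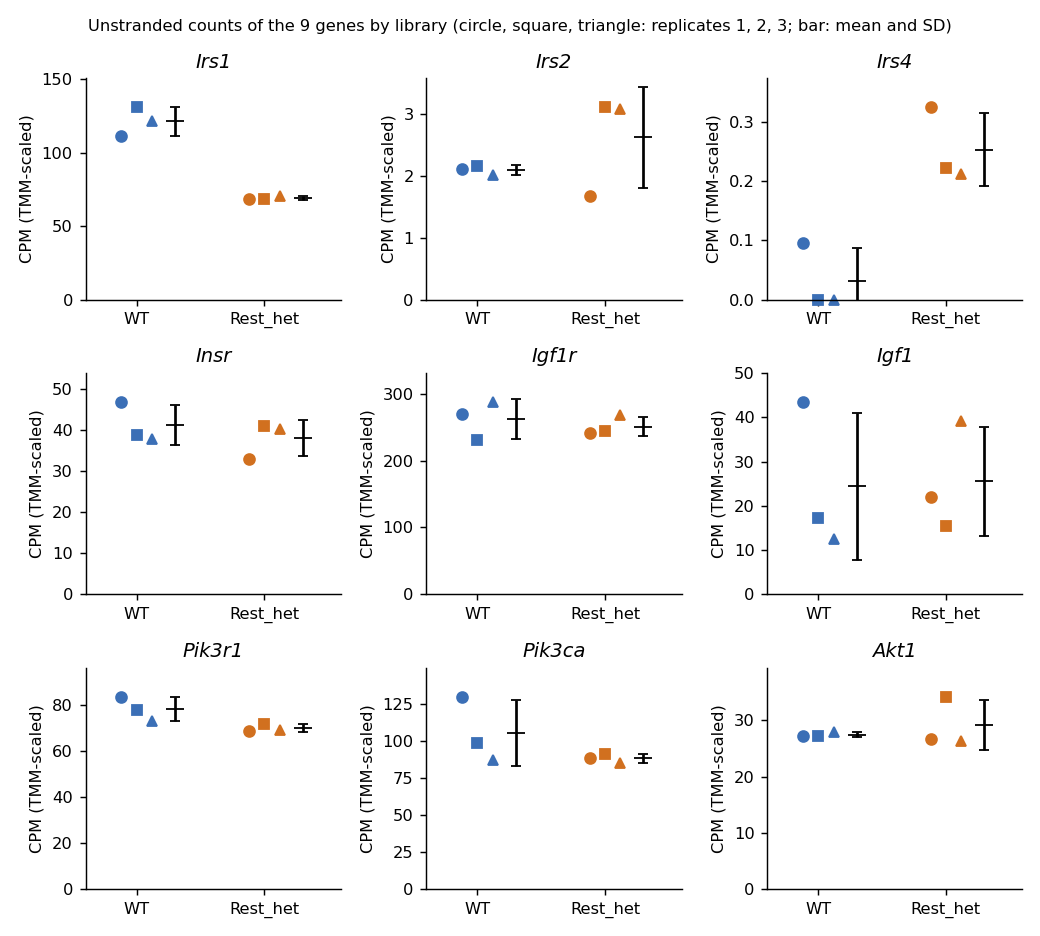
Each panel plots 1 of the 9 genes, with TMM-scaled CPM from the unstranded counts on the vertical axis from 0, a point per library (circle, square and triangle for replicates 1, 2 and 3) and the mean with its SD beside them. Irs1, Pik3r1 and Irs4 are the panels in which the groups do not overlap, and the Irs1 values lie at 111 to 131 CPM in WT and 68.4 to 70.7 CPM in the mutants.

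Most reads over the Irs1 exons were missing from its unstranded count. The predicted gene Gm9747 lies on the opposite strand from 82233112 to 82235933, inside the last exon of Irs1, and shares 2822 of the 9144 exon bases. Reads there are ambiguous when strand is ignored: Gm9747 had 0 unstranded reads in all 6 libraries. The 2 strand columns of the deposited files assign such reads to either gene, and in each library the strand sum of Irs1 equalled its unstranded count plus the strand sum of Gm9747, to within 1 read. With this chemistry, which marks no strand, the reads of the shared stretch belong to Irs1 or Gm9747 and cannot be told apart.

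The shared stretch repeated the difference of the groups in reads that the unstranded count did not hold. It had 8200, 8990 and 8331 reads in WT and 4608, 4246 and 5008 reads in Rest_het libraries, or 432 ± 41.2 CPM against 250 ± 15.4 CPM (SD, n = 3). WT levels were 1.73-fold those of Rest_het there, with an interval from 1.52 to 1.95, next to 1.75-fold outside it. These reads come from the same libraries as the unstranded count, so they are not independent support for it. The stretch held 77.4 to 79.0% of all Irs1 exon reads in each library, with the groups overlapping. Per kb of exon it measured 153 ± 14.6 CPM in WT, against 19.2 ± 1.53 CPM per kb over the other 6322 bases (SD, n = 3). The cDNA was primed with oligo dT, and the stretch ends close to the 3′ end of the transcript. Both parts summed gave 553 ± 50.8 CPM in WT and 319 ± 16.5 CPM in the mutants (SD, n = 3), which is the level of Irs1 together with any reads of Gm9747 and 4.58 times the unstranded reads of Irs1 over the 6 libraries. A ratio at least that high was found for 232 of the 15385 tested genes, and 86.1% had a ratio of at most 1.1.

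**Figure D2:**
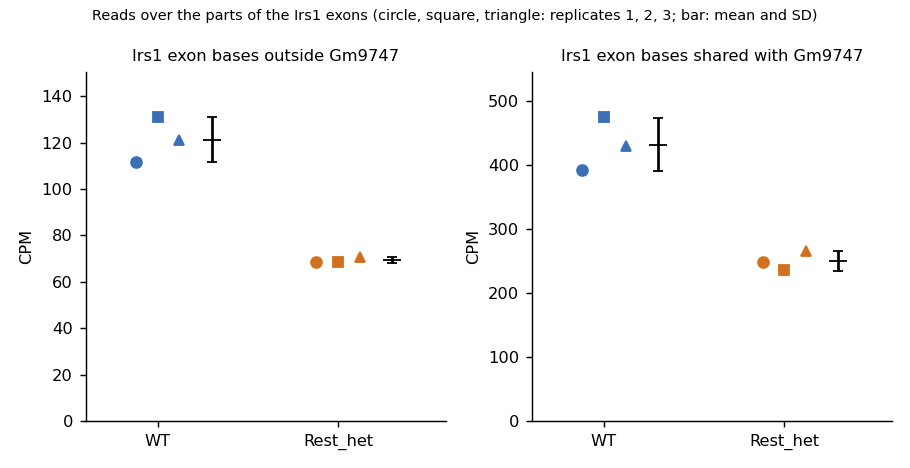
CPM over the Irs1 exon bases outside Gm9747 (left, the unstranded count) and over the bases shared with it (right, from the strand columns), each on an axis from 0, with a point per library and the mean and SD. In both panels the 3 Rest_het libraries lie below the 3 WT libraries, at means of 69.3 against 121 CPM on the left and 250 against 432 CPM on the right.

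Compared per kb of exon, the place of Irs1 among the 9 genes depended on the shared stretch. With the strand columns summed for all genes, the Irs1 exons held 60.5 ± 5.56 CPM per kb in WT and 34.9 ± 1.80 in Rest_het libraries (SD, n = 3), above the other 8 genes in both groups. Over the 6322 unshared bases alone they held 19.2 ± 1.53 and 10.96 ± 0.198 CPM per kb, above the Igf1r mean of 15.6 ± 1.75 in WT and below that of 14.9 ± 0.861 in Rest_het libraries (SD, n = 3). The unstranded count over all 9144 bases gave 13.2 ± 1.06 CPM per kb in WT, below Igf1r, and 7.57 ± 0.137 in Rest_het libraries, below Igf1r and Pik3ca. Among the other genes, with the strand columns summed, Igf1r at 15.6 and Pik3ca at 11.6 ± 2.44 CPM per kb led in WT, and their WT libraries overlapped. Pik3r1 at 7.74 ± 0.521 and Akt1 at 6.70 ± 0.118 CPM per kb came next in WT, without overlap, whereas their Rest_het libraries overlapped. Insr at 3.00 ± 0.357 and Igf1 at 2.46 ± 1.69 CPM per kb overlapped in both groups. Irs2 stood at 0.336 ± 0.0160 CPM per kb and Irs4 at 0.00506 ± 0.00877 CPM per kb in WT (SD, n = 3). On each of the 3 ways of counting Irs1, its mean in both groups lay above those of Irs2 and Irs4. Priming from the 3′ end affects values per kb, since long transcripts are covered unevenly.

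Of the other IRS genes, Irs2, the second widely expressed adaptor of the family, did not pass the test. Its WT libraries held 2.10, 2.16 and 2.01 CPM and its Rest_het libraries 1.68, 3.10 and 3.08 CPM. Rest_het replicate 1 was the lowest of all 6 and the other mutants the highest, so the groups overlapped. The fold change was 1.25 with an interval from 0.846 to 1.85 (edgeR adjusted p = 0.67). Irs4, an X-linked adaptor known from the hypothalamus and pituitary, was close to the limit of detection, with 2, 0 and 0 reads in WT and 6, 4 and 4 reads in Rest_het libraries. Each Rest_het library lay above each WT library, at 0.212 to 0.324 CPM against 0 to 0.0956 CPM (exact permutation test, two-sided, p = 0.1, which is the smallest for 3 against 3), where 10.4% of tested genes had all mutants above all WT libraries. The 14 reads of the mutants against 2 gave a ratio of 7.50, scaled by the TMM-adjusted library sizes. Its exact 95% binomial interval, from 1.72 to 68.0, covers counting error only. Irs4 failed the filter and entered no edgeR test.

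Neither receptor gene passed the test. Insr, the insulin receptor, measured 46.9, 39.0 and 38.0 CPM in WT and 33.0, 40.9 and 40.3 CPM in the mutants. WT replicate 1 was the highest and Rest_het replicate 1 the lowest, with the other 4 between 38.0 and 40.9 CPM. Its log2 fold change was -0.12 with an interval from -0.36 to 0.12 (edgeR adjusted p = 0.73). Igf1r, the receptor of IGF-I and IGF-II, measured 269, 230 and 288 CPM in WT and 241, 244 and 267 CPM in the mutants. All 3 mutants lay within the WT range. Its log2 fold change was -0.06 with an interval from -0.26 to 0.13 (edgeR adjusted p = 0.82).

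Igf1, the gene of the ligand IGF-I, varied more between libraries of a group, relative to its mean, than any other tested member. It measured 43.5, 17.1 and 12.5 CPM in WT and 21.9, 15.46 and 39.3 CPM in the mutants. WT replicate 1 and Rest_het replicate 3 were high, and the groups overlapped almost fully. Its log2 fold change was 0.07 with SE 0.48 (edgeR adjusted p = 0.97), and the fold change of 1.05 had an interval from 0.543 to 2.02. It was 0.79 without WT replicate 1 and -0.38 without Rest_het replicate 3. The same 2 libraries were the highest for the summed meningeal and fibroblast markers, at 434 and 463 CPM against 160 to 311 CPM in the other 4. All 5 of these markers had reads in every library, and the sums ranged from 160 to 434 CPM in WT and from 165 to 463 CPM in the mutants. Endothelial markers were highest in these libraries too, at 93.3 and 95.8 CPM against 49.95 to 87.1 CPM. The part of such cells in the Igf1 values was not tested. Igf2, the other IGF ligand, had its 2 highest values in the same libraries, with 19.3 CPM in WT replicate 1 and 24.1 CPM in Rest_het replicate 3 against 6.91 to 14.6 CPM elsewhere, and an edgeR adjusted p of 0.76.

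**Figure D3:**
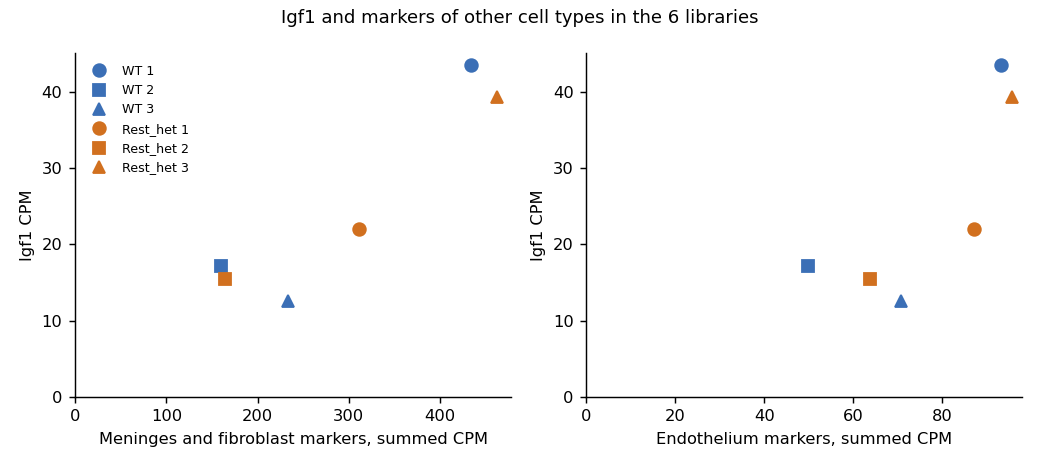
Igf1 CPM on the vertical axis against the summed CPM of 5 meningeal and fibroblast markers (left) and of 5 endothelial markers (right), with a point per library, blue for WT and orange for Rest_het. WT replicate 1 and Rest_het replicate 3 lie at the upper right in both panels, at 43.5 and 39.3 CPM of Igf1, and the other 4 libraries at 12.5 to 21.9 CPM.

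Downstream of the receptors, the PI3-kinase genes among the members, Pik3r1 and Pik3ca, had lower means in the mutants and did not pass the test. Pik3r1, the regulatory subunit p85-alpha, measured 83.4, 77.5 and 73.0 CPM in WT and 68.5, 71.8 and 69.1 CPM in the mutants. Its groups did not overlap, which held for 19.3% of all tested genes and, with the mutants lower, for 8.94%, and the gap between the lowest WT and the highest mutant library was small. Its log2 fold change was -0.16 with SE 0.08 (edgeR adjusted p = 0.48). Pik3ca, the catalytic subunit p110-alpha, measured 130, 98.7 and 87.0 CPM in WT and 88.3, 91.0 and 85.2 CPM in the mutants. WT replicate 1 stood apart, and without it the log2 fold change moved from -0.26 to -0.08 (edgeR adjusted p = 0.502 with it, 0.80 without it). Akt1, the kinase downstream of PI3-kinase, measured 27.1, 27.2 and 28.0 CPM in WT and 26.7, 34.2 and 26.4 CPM in the mutants. Rest_het replicate 2 was the highest, and the other 5 lay between 26.4 and 28.0 CPM. The log2 fold change of Akt1 was 0.08 with SE 0.12 (edgeR adjusted p = 0.81).

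Of the 7 tested members besides Irs1, edgeR called 0, and 0 reached an unadjusted p under 0.05, where 11.7% of all tested genes did. DESeq2 called 0 of them as well. Their median log2 fold change was -0.06, beside 0.01 over all tested genes. In simulated data the same fit called 20% of genes changed 1.5-fold and 48% of those changed 2-fold. A count of 0 calls, here and below, thus does not show that genes were unchanged.

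A wider list of 106 insulin and IGF pathway genes was read from the same fit, of which 97 were tested. Besides Irs1, edgeR and DESeq2 called 0 of the other 96. Of these 96, 16 (16.7%) had an unadjusted edgeR p under 0.05, with 10 higher and 6 lower, against 6.98% higher and 4.72% lower among all tested genes. Their median log2 fold change was 0.03, and 51 lay above 0 and 45 below, where 50.9% of all tested genes lay above 0. The values that follow did not pass over all genes, and each gene named had 1 of the 2 smallest unadjusted p of its group.

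Among the 10 tested genes of IGF-binding proteins and their proteases, 8 lay above 0, with a median log2 fold change of 0.31. Over all tested genes 50.9% lay above 0. Igfbp4, which binds IGFs and is cleaved by the protease of Pappa, measured 12.6 ± 2.29 CPM in WT and 18.1 ± 2.68 CPM in the mutants (SD, n = 3; edgeR adjusted p = 0.36). Igfbp7 stood at 2.71 ± 1.18 and 4.76 ± 0.720 CPM (SD, n = 3; edgeR adjusted p = 0.396), and its exons overlap those of Polr2b on the other strand. Of 15 tested adaptor genes 8 lay above 0. Sh2b2, an adaptor that binds the insulin receptor, measured 3.15, 6.96 and 5.92 CPM in WT and 9.35, 7.87 and 8.34 CPM in the mutants, with WT replicate 1 lowest (edgeR adjusted p = 0.41).

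The 6 PI3-kinase subunit genes split, with 2 above 0 and 4 below. Pik3r2, the regulatory subunit p85-beta, measured 18.2, 37.7 and 42.0 CPM in WT and 61.6, 58.3 and 44.5 CPM in the mutants (edgeR adjusted p = 0.395). It lay on the other side of 0 from Pik3r1, at a log2 fold change of 0.75, and WT replicate 1 was again the lowest. Without that library the value was 0.46 for Pik3r2 and 0.40 for Sh2b2. All but 1 of the 5 tested phosphoinositide phosphatase genes lay below 0, among them Inpp4a at 1147 ± 183 CPM in WT and 1029 ± 144 CPM in the mutants (SD, n = 3; edgeR adjusted p = 0.69).

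In the group of AKT and its kinases 2 of 9 genes lay above 0. Akt2, the AKT isoform best known from insulin-responsive tissue, measured 31.3 ± 2.85 CPM in WT and 38.9 ± 3.84 CPM in the mutants (SD, n = 3; edgeR adjusted p = 0.37), while Phlpp1, a phosphatase that acts on AKT, had a log2 fold change of -0.24 with SE 0.12. Of the 12 genes of the mTORC1 arm, the growth-promoting branch below AKT, 8 lay above 0 and 4 had an unadjusted p under 0.05. Over all tested genes these shares were 50.9% and 11.7%. Akt1s1, the mTORC1 inhibitor PRAS40, measured 4.73, 8.97 and 10.6 CPM in WT and 19.3, 16.8 and 11.2 CPM in the mutants (edgeR adjusted p = 0.36). Tsc1, a brake on mTORC1, measured 15.9, 19.1 and 15.7 CPM in WT and 12.4, 13.7 and 13.4 CPM in the mutants (edgeR adjusted p = 0.36).

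Genes of FOXO and GSK3, which AKT inhibits, and of FOXO targets held 0 of 16 tested genes at an unadjusted p under 0.05. Over all tested genes this share was 11.7%. Foxo1 had a log2 fold change of 0.28 and Gsk3a one of 0.23. The FOXO targets Sesn1 and Sesn3, both stress-induced regulators of mTORC1, had log2 fold changes of 0.17 and 0.27. Among 10 tested inhibitors of the receptors and adaptors, the SOCS genes differed in direction. Socs3, a cytokine-induced inhibitor that also binds the insulin receptor, measured 2.68 ± 0.422 CPM in WT and 4.59 ± 0.157 CPM in the mutants (SD, n = 3; edgeR adjusted p = 0.32), without overlap. Socs2, an inhibitor of growth hormone signalling, measured 213, 214 and 128 CPM in WT and 117, 131 and 118 CPM in the mutants (edgeR adjusted p = 0.35). WT replicate 3 lay among the mutants. In the RAS-ERK arm, the other branch below the adaptors, Nras stood at 4381 ± 181 CPM in WT and 3342 ± 722 CPM in the mutants (SD, n = 3; edgeR adjusted p = 0.39).

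**Figure D4:**
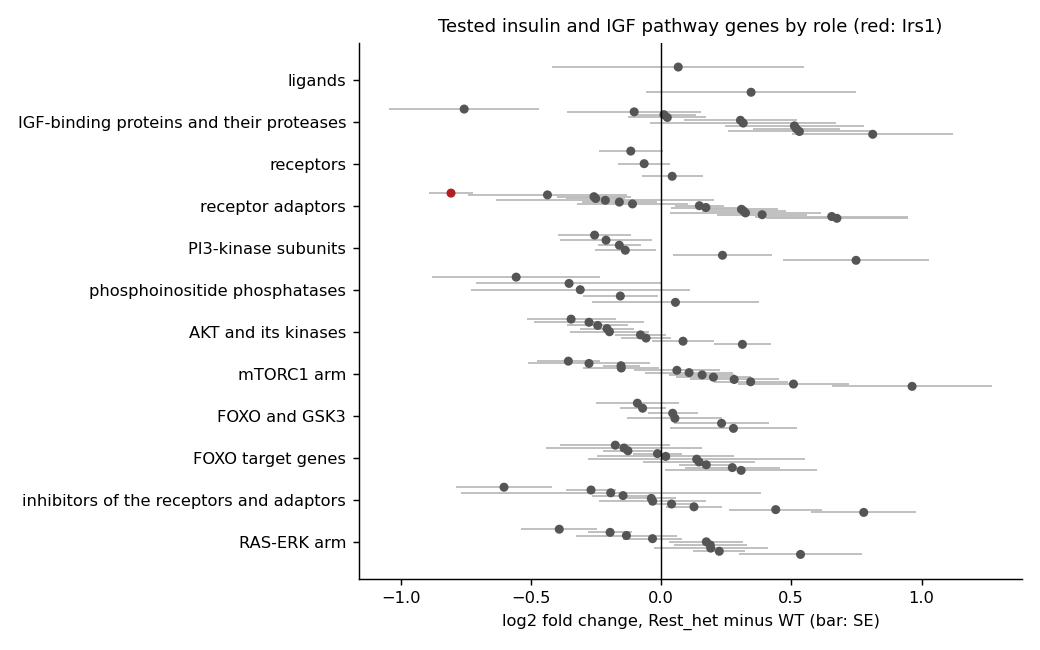
Log2 fold change of Rest_het minus WT on the horizontal axis with its SE, with a point for each of the 97 tested pathway genes, grouped by role from ligands at the top to the RAS-ERK arm at the bottom. Irs1, in red, lies at -0.81 with SE 0.09, and the other adaptors lie on both sides of 0.

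Chromosome 1 held 9 of the 19 called genes (47.4%), Irs1 among them, and 1022 of the 15385 tested genes (6.64%). The other 10 calls lay on chromosomes 5 (6 genes) and 8 (4 genes). The surroundings of Irs1 were read from the same fit. The nearest other called gene, Traf3ip1, lies 9.20 Mb away. Of 51 other tested genes within 5 Mb, edgeR called 0, and 12 had an unadjusted p under 0.05, or 23.5%, with 7 higher and 5 lower, against 11.7% of all tested genes. In 15 of the 51, or 29.4%, the groups did not overlap, against 19.3% overall. Their median log2 fold change was 0.02. DESeq2 called 4 of the 51, Col4a3 lower and Itm2c, Ncl and Gm38142 higher, and edgeR without a count filter called Col4a3 and Gm38142. Over all genes DESeq2 called 131 of 15876, or 0.825%, and edgeR without a count filter called 107 of 28794.

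Among the 3 nearest tested genes on each side of Irs1, lower values in every mutant library were found for Nyap2, Rhbdd1 and Col4a3. That split held for 8.94% of all tested genes. Agfg1, which begins 0.606 Mb above the start coordinate of Irs1 and so closer than Nyap2, was higher in every mutant library. Its log2 fold change was 0.42 (edgeR adjusted p = 0.32). Over the 51 tested genes within 5 Mb, the groups separated with the mutants higher in 8 and lower in 7. Col4a3, a chain of basement membrane collagen that begins 0.354 Mb above the start coordinate of Irs1, measured 8.70, 7.38 and 6.44 CPM in WT and 3.89, 3.77 and 3.98 CPM in the mutants. Its mutant libraries lay close together, at a log2 fold change of -0.95 with SE 0.17 (edgeR adjusted p = 0.198). Nyap2, a neuronal adaptor that binds PI3-kinase, measured 8.41, 9.18 and 5.51 CPM in WT and 4.86, 4.43 and 4.73 CPM in the mutants (edgeR adjusted p = 0.35). Rhbdd1, a rhomboid protease and the neighbour on the other side, had a log2 fold change of -0.33 with SE 0.16 (edgeR adjusted p = 0.45). Col4a4 at -0.25, Gm37262 at -0.24 and Dock10 at 0.00 overlapped between the groups, and the sign of Dock10 turned under other scalings.

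**Figure D5:**
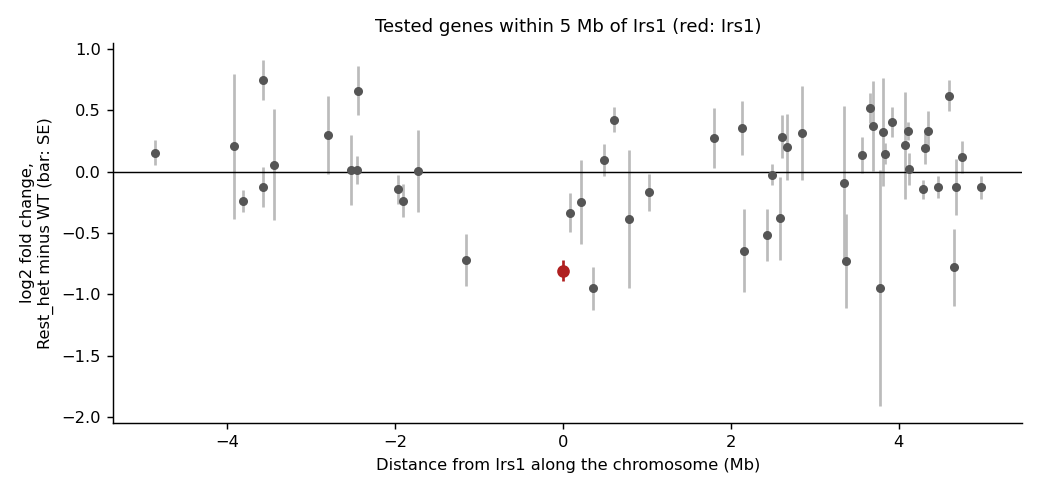
Log2 fold change of Rest_het minus WT with its SE on the vertical axis against distance from Irs1 along the chromosome in Mb, with a point for each of 51 tested genes and Irs1 in red at 0. The genes lie on both sides of 0, and those within about the first Mb include Col4a3 at -0.95 and Agfg1 at 0.42, beside Irs1 at -0.81.

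By pattern over the 6 libraries, the 5 tested genes most like Irs1 were Gm15446, Napsa, AW554918, Ptbp2 and Gm5741, with Pearson correlations of log2 CPM of 0.998, 0.990, 0.986, 0.985 and 0.985. Irs1 was chosen for its difference between the groups, so genes with the same split lead this order, and in all 5 each mutant library lay below each WT library. After the group means were removed, the correlation was 0.97 for Gm15446 and 0.95 for Gm5741, and 0.77, 0.72 and 0.66 for Napsa, AW554918 and Ptbp2. The 5 genes were picked by values that include these deviations, so these correlations are not independent support. Gm15446, a gene of chromosome 5, measured 110, 128 and 116 CPM in WT and 58.6, 58.6 and 59.2 CPM in the mutants, and Ptbp2, a splicing regulator of neurons, 419, 432 and 421 CPM against 364, 376 and 378 CPM. These correlations rest on 6 points that share library depth and dissection.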

How the data were processed

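Per the labels' protocols, RNA from dissected neocortex was reverse transcribed with an oligo dT primer, amplified for 12 cycles, tagmented and sequenced as paired reads of 126 bases, with no strand mark and no molecular identifiers. Per the submitters' processing notes, the deposited whole-number read counts per gene came from STAR 2.5.2a and the build GRCm38.p4. The annotation release is not given in the sources used here. A deposited table of normalized signal, made by the authors with DESeq2 per the same notes, equalled counts over 1 size factor per library (relative tolerance 1e-06) for its 18995 genes and served as an alternative.

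The unstranded column was tested with edgeR 4.0.16 (R 4.3.3), quasi-likelihood, TMM scaling, genotype as the single term and filterByExpr (count minimum 10, total 15), with Benjamini-Hochberg adjustment over all 15385 genes and a call at 0.05. Reads in no gene (21.4 to 26.9% of read pairs), ambiguous reads (2.54 to 2.85%), unmapped and multimapping reads, and spike-in and transgene rows stayed out of library sizes. Symbols, exon lengths and positions came from GENCODE M21 (GRCm38), matched by ID for 48349 of 48709 genes. SE is the log2 fold change over the root of its F statistic. Intervals of fold changes span 1.96 SE on either side on the log2 scale, a normal approximation. They are narrower than the quasi-likelihood test allows, so their coverage is below 95%. That of Rhbdd1, from -0.64 to -0.026, left out 0 at an unadjusted edgeR p of 0.065.

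The members and lists were chosen with earlier results of these data known. Named genes are the 9 members, called pathway genes, the 2 smallest p per list, the 3 nearest tested genes on either side of Irs1, the 5 most correlated with it, and Rest; some of these are not reported here. Alternatives were DESeq2 1.42.0, limma 3.58.1 (voom, and on log2 of the deposited values plus 1), other scalings and filters, summed strand columns, a replicate block, a looser threshold of 0.10 and each library left out. The fit was tested on simulated data. Plots used Python 3.11.15 and matplotlib 3.10.9.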

Additional observations from a re-analysis of the deposited data

Results flagged for a closer look

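Reads outside the gene table split by group: 121 LacZ reads occurred in the 3 WT libraries and 0 in the Rest_het libraries, whereas Cre-ERT2 had 43 reads over the mutants and 0 over the WT libraries. Their bearing on Irs1 or the other members was not tested.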

How the results depend on the processing

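Under the 16 alternatives, the log2 fold change of Irs1 stayed below 0, from -0.86 to -0.75. Its call held under 12, among them both other scalings, both other filters, DESeq2, both limma fits and the summed strand columns, and ended with the replicate block (-0.80, edgeR adjusted p 0.089) and without each of 3 single libraries, for which the values over the 6 omissions ranged from -0.86 to -0.75. The number of genes called over the whole table was 19, and became 107 with no filter, 131 with DESeq2, 6 with the replicate block, and 12 to 35 with a library left out. Calls among the members other than Irs1 and among the other pathway genes remained 0 under every alternative. Calls within 5 Mb of Irs1 went from 0 to 2 with no filter and 4 with DESeq2.

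Directions turned for genes that were never called. With each library left out in turn, Igf1r ranged from -0.15 to 0.0063 (above 0 without WT replicate 3). Igf1 ranged from -0.38 to 0.79 and was below 0 without WT replicate 2 (-0.13), WT replicate 3 (-0.25) and Rest_het replicate 3. Akt1 ranged from -0.045 to 0.15 (below 0 without Rest_het replicate 2), Igf2 from -0.051 to 0.78 (below 0 without Rest_het replicate 3) and Col4a4 from -0.43 to 0.035 (above 0 without Rest_het replicate 2). Dock10 ranged from -0.21 to 0.27, and was -0.0032 with DESeq2 size factors, -0.017 with upper-quartile factors and -0.0011 with DESeq2. Col4a3 passed with no filter and with DESeq2, and the call of Gm15446 ended under the block; the causes were not tested.

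The replicate numbers gave no pairing: deviations of same-numbered libraries correlated at 0.011, 0.037 and -0.14, and not every library correlated best with its own number. Depth limits Irs4, with 0 to 6 reads a library.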
